A study of Homo sapiens with 4 samples.

Results

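The 80 ribosomal protein genes described here are the protein-coding genes on chromosomes 1 to 22 whose GENCODE release 44 symbol names a protein of the large (RPL) or small (RPS) cytosolic ribosomal subunit. They were picked by symbol alone, with kinases such as RPS6KA1 and genes of the X chromosome such as RPL10 outside the rule, from 18773 coding genes that have at least 1 coding transcript. SMC1 and CTCF HiChIP, which joins chromatin immunoprecipitation to proximity ligation, was performed in HG00731, a lymphoblastoid cell line (LCL), that is, a B cell line. Chromatin was fixed with formaldehyde (FA) and then ethylene glycol bis(succinimidyl succinate) (EGS) for the SMC1 subunit of cohesin, and with FA alone for CTCF, without any treatment or genetic change. There were 2 replicates per target, and the peak list and loop list used here for each target pool both. No value below therefore has a spread between replicates and no test was possible, target and fixation cannot be told apart, and the 95% intervals cover counting error only.

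Ribosomal proteins are needed in near-equal numbers, and their genes are among the most highly transcribed in growing cells. Their messenger RNAs begin with a terminal oligopyrimidine tract, a C followed by a run of C and T, through which mTOR signalling controls their translation. Cohesin extrudes chromatin loops, and CTCF bound to DNA can halt it. Both are often found at active gene starts.

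By role, 40 members encode large subunit proteins, 30 small subunit proteins and 3 the acidic stalk (RPLP0, RPLP1 and RPLP2), and 7 are paralogs (RPL3L, RPL7L1, RPL10L, RPL22L1, RPL26L1, RPL39L and RPS27L). RPL36AL, a further paralog, does not match the symbol rule. It had an SMC1 peak with a -log10 q-value of 19.6, no CTCF peak and 1 loop in the list labelled CTCF. Chromosome 19 held 12 members, 15.0% of them against 7.63% of coding genes, and chromosomes 7 and 21 held none. The members had a median length of 5.55 kb against 27.7 kb for all coding genes. A small nucleolar RNA gene lay inside 26 members (32.5%), against 1.20% of coding genes. The start region had a CpG observed over expected ratio of at least 0.6 in 79 of 80 members, against 68.3% of coding genes.

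The sequence around the start is what the members most plainly shared, and the windows below show it. Members with an SMC1 peak are shown with a tract at the start base (RPL26, RPS19, RPSA, RPL11 and RPLP0) or without one there (RPL10A, RPS15 and RPS27L). RPS18, RPS9, RPL14 and RPL10L are shown as members without an SMC1 peak. Each window holds the 15 bases before the start and the 15 bases from it, on the strand of the gene. The letters are from RefSeq (GRCh38.p14), with the tract in capitals.
RPL26: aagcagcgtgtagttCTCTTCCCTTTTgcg
RPS19: ggaaaccccgtcgttCCCTTTCCCCTggct
RPSA: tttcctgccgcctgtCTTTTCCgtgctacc
RPL10A: tgcgcaagacatgctagtctcttttccggt
RPS15: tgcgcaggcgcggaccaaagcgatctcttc
RPL11: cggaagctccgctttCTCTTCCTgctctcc
RPLP0: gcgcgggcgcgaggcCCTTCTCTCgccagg
RPS18: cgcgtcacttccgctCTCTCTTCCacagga
RPS9: gtggcgcttccgcgcCTCTTTCTCagtgac
RPL14: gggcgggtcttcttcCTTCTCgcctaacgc
RPS27L: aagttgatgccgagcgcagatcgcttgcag
RPL10L: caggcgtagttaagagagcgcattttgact
The windows of RPL26 (chr17:8383179-8383208, minus strand) and RPS19 (chr19:41860240-41860269, plus strand) belong to genes with some of the highest SMC1 peaks, and so do those of RPL10A (chr6:35468386-35468415, plus strand) and RPS15 (chr19:1438381-1438410, plus strand), which do not begin with a tract. RPS18 (chr6:33272060-33272089, plus strand), RPS9 (chr19:54200843-54200872, plus strand) and RPL14 (chr3:40457324-40457353, plus strand) had no SMC1 peak. The paralogs RPS27L (chr15:63157463-63157492, minus strand) and RPL10L (chr14:46651767-46651796, minus strand) had no tract in their windows.

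A tract, counted as a C at the start base followed by at least 4 further C or T on the gene's strand, was present in 44 of the 63 members with a RefSeq start sequence, which is 69.8% (95% Wilson interval from 57.6 to 79.8). Among the 14578 coding genes with such a sequence the share was 6.32%, and among genes for mitochondrial ribosomal proteins, which make up the separate ribosome of mitochondria, it was 8.70%. The members' tracts ran from 5 to at least 15 bases, where the window ended, with a median of 8. When the tract could begin anywhere within 5 bases of the start, 81.0% of members and 28.3% of coding genes held one. Further motifs were searched on both strands from 250 bases before to 50 bases after the start. CCGGAAG, bound by the ETS family, was present in 34.9% of members and 16.9% of coding genes, and in 43.5% of mitochondrial ribosomal protein genes. AAGATGGC, bound by YY1, was present in 11.1% of members, 4.75% of coding genes and 30.4% of mitochondrial ribosomal protein genes. GGGCGG of the SP family was present in 55.6% of members and 65.5% of coding genes, the E-box CACGTG in 7.94% and 10.8%, and TATAAA in 11.1% and 12.6%. Coding genes with a CpG ratio of at least 0.6 held CCGGAAG in 21.8%, AAGATGGC in 6.11% and GGGCGG in 80.9%. They held CACGTG in 12.9% and TATAAA in 7.90%. A match is a description of the letters and not a bound site.

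SMC1 peaks were present at most ribosomal protein genes. Of the 80 members, 68 had an SMC1 peak within 1 kb of the start of a coding transcript, which is 85.0% (95% Wilson interval from 75.6 to 91.2), against 64.2% of all coding genes. Genes with similar start regions lay nearer to the members. The share was 78.8% for coding genes with a CpG ratio of at least 0.6, 91.0% for mitochondrial ribosomal protein genes, 81.8% for 22 other genes of the oligopyrimidine class, such as translation factors, and 94.3% for 35 ribosome assembly genes. Only the value for all coding genes lay outside the members' interval on the lower side. Because members have a median of 5 coding starts against 3 for all coding genes, the count was repeated at the canonical start alone, where 67 members (83.8%) and 59.5% of coding genes had a peak. Several SMC1 peaks were present at 16 members (20.0%) and at 23.2% of coding genes.

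CTCF peaks were present at 48 members, 60.0% (95% Wilson interval from 49.0 to 70.0), against 46.0% of coding genes and 56.8% of those with a CpG ratio of at least 0.6. At the canonical start alone there was one at 47 members (58.8%) and at 39.5% of coding genes. Mitochondrial ribosomal protein genes had a CTCF peak in 48.7% and assembly genes in 60.0%. Both targets had a peak at 46 members (57.5% against 44.2% of coding genes). SMC1 alone had one at 22 members (27.5% against 20.0%), CTCF alone at 2 members, with RPL10L among them (2.50% against 1.82%), and neither at 10 members (12.5% against 34.0%). Among genes with an SMC1 peak, the share that also had a CTCF peak was 67.6% for members (95% Wilson interval from 55.8 to 77.6) and 68.8% for all coding genes. The members with SMC1 alone included RPL4, RPL8, RPL13A, RPL21, RPL23, RPL28, RPL31, RPL34, RPL35A, RPL37, RPL37A, RPL41, RPLP1, RPS3, RPS7, RPS21, RPS24, RPS25, RPS27 and the paralog RPL7L1. The study reports more reads for SMC1 than for CTCF, and the lists were not matched for depth, so SMC1 alone does not mean that CTCF was absent. The plot of shares by gene list shows the shares with a peak of each target.

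**Figure D1:**
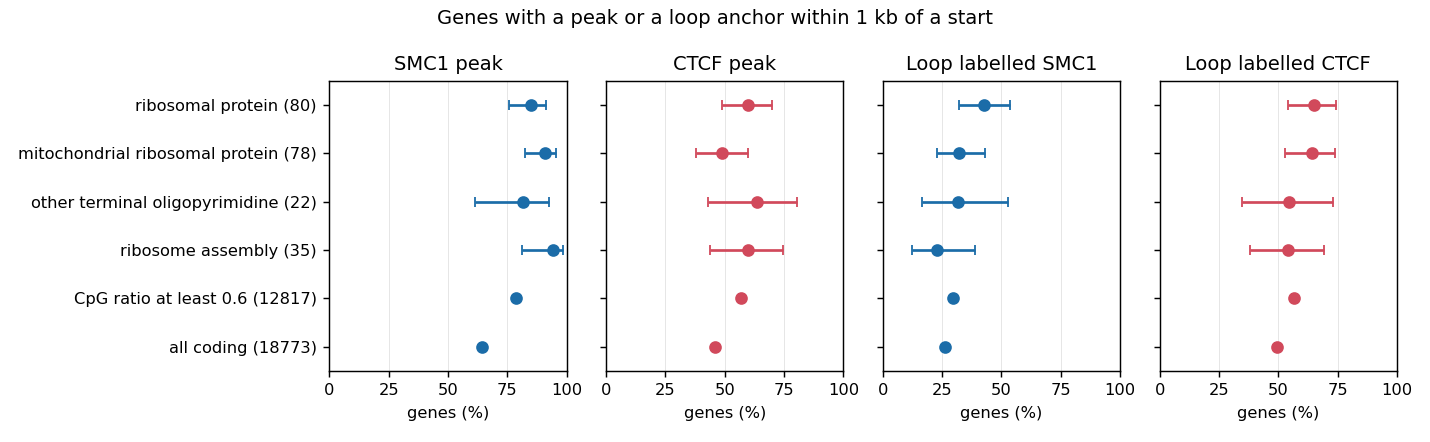
Share of genes (%, with 95% Wilson intervals as bars) that had an SMC1 peak, a CTCF peak, or a loop anchor of the list labelled SMC1 or CTCF within 1 kb of a start, for 6 gene lists with their number of genes. Ribosomal protein genes (top, 85.0%, 60.0%, 42.5% and 65.0%) lay above all coding genes (bottom, 64.2%, 46.0%, 26.3% and 49.3%) in each panel, while the other ribosome lists overlapped them.

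The strength of a peak is given as its -log10 q-value, which grows with the number of reads and with the enrichment over the local background. For the strongest SMC1 peak per gene the median was 38.4 in members (95% rank interval from 26.2 to 49.0) and 33.0 in all coding genes with a peak. For CTCF it was 43.5 (95% rank interval from 14.7 to 80.7) against 27.3. A value of at least 100 was reached by 7 members for SMC1 (8.75% against 6.70% of coding genes) and by 15 for CTCF (18.8% against 10.7%). Members with peaks of both targets had a median SMC1 value of 48.3, and those with an SMC1 peak alone one of 14.7. The same split is not given here for all coding genes, so it is not shown to be particular to members. Across the 46 members with both peaks the SMC1 and CTCF values had a Spearman correlation of 0.544, and across 8297 coding genes one of 0.585. This is a correlation across genes, which share the same libraries and are not independent replicates.

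**Figure D2:**
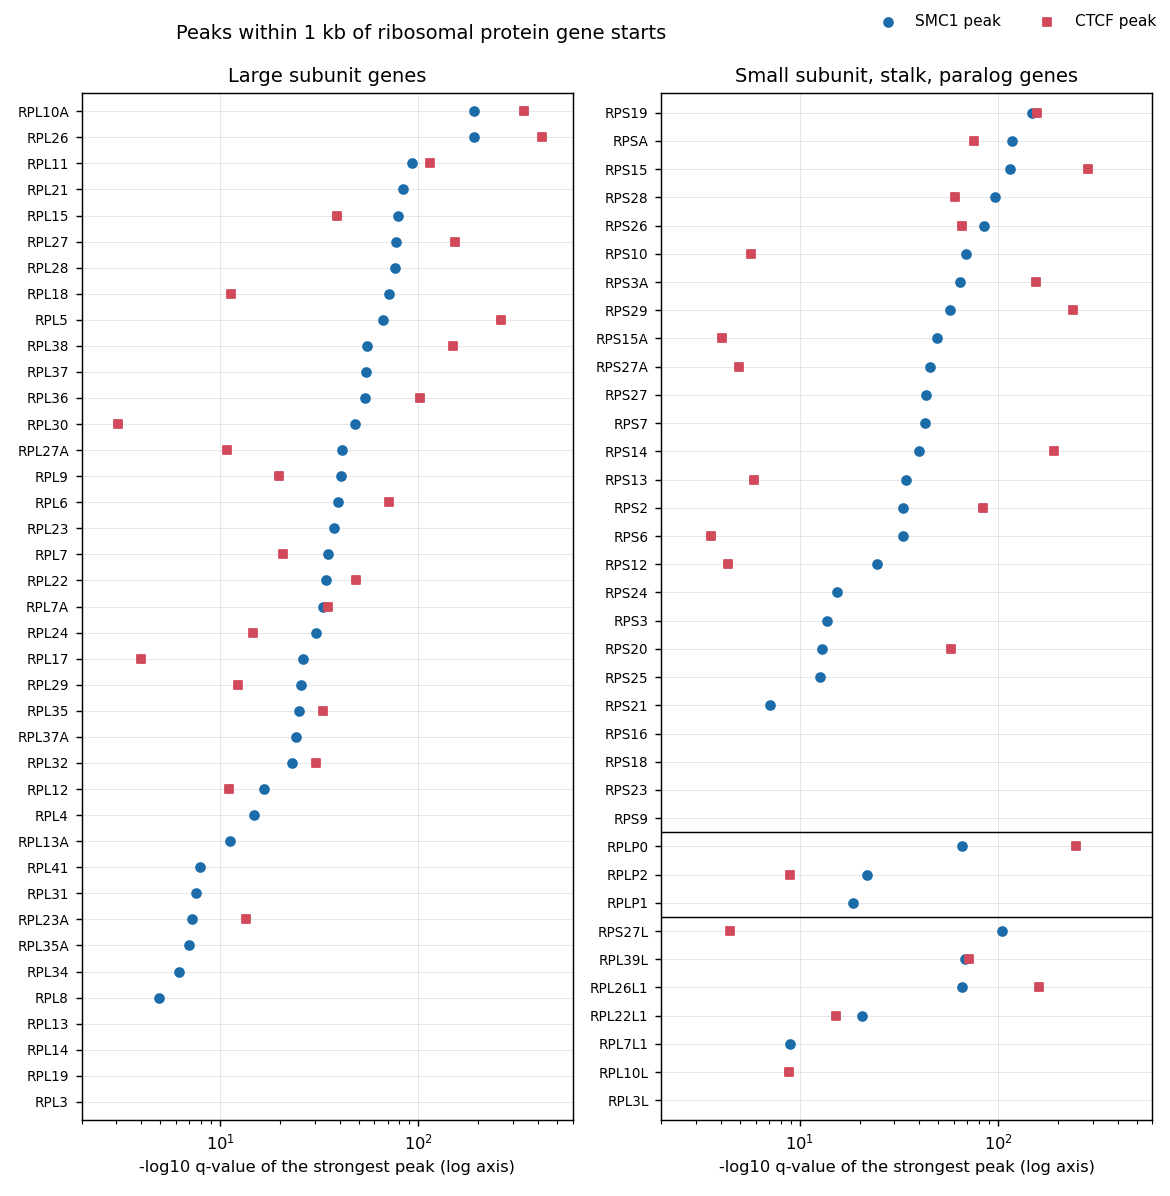
Strongest SMC1 (blue circles) and CTCF (red squares) peak within 1 kb of a start for the members shown, as -log10 q-value on a log axis, with large subunit genes on the left and small subunit, stalk and paralog genes (separated by lines) on the right. A gene without a symbol had no peak of that target, and the SMC1 peaks of RPL10A and RPL26 lead the large subunit genes shown at 191 each.

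Among the large subunit genes, 36 of 40 had an SMC1 peak and 24 a CTCF peak. RPL10A had an SMC1 peak of 191 (chr6:35467675-35469076) and a CTCF peak of 342, with both summits at -70 bp, where negative positions are before the canonical start. RPL26, whose protein also binds the p53 messenger RNA, had an SMC1 peak of 191 with a 9.92-fold enrichment over the local background (chr17:8382902-8384178) and the strongest CTCF peak of any member, 418 with a 14.6-fold enrichment. At RPL10A the peaks of both targets lay over the canonical start, while at RPL26 the CTCF peak (chr17:8383214-8384179) ended before the start that the SMC1 peak covered.

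RPL5 and RPL11 bind 5S ribosomal RNA and, when ribosome assembly fails, inhibit MDM2, the ubiquitin ligase of p53. RPL11 had an SMC1 peak of 92.4 (chr1:23691230-23692966) and a CTCF peak of 114. RPL5 had an SMC1 peak of 66.0 (chr1:92831670-92832156) and a CTCF peak of 262, whose 16.8-fold enrichment was the highest of any member. The weakest SMC1 peaks were those of RPL8 at 4.94 and RPL34 at 6.18, and neither gene had a CTCF peak.

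Of the 30 small subunit genes, 24 had an SMC1 peak, 80.0% against 64.2% of all coding genes. A CTCF peak was present at 17 of them, 56.7% against 46.0%. RPS19, the gene most often mutated in Diamond-Blackfan anaemia, had an SMC1 peak of 149 (chr19:41858873-41859810) and a CTCF peak of 157. Their summits lay farther before the start than in the genes above, at -776 and -751 bp. RPSA, also known as the laminin receptor, had an SMC1 peak of 117 (chr3:39405937-39407080) and a CTCF peak of 75.7. RPS15 had an SMC1 peak of 115 (chr19:1437741-1439086) and a CTCF peak of 284, with summits at -33 and -47 bp. RPS14, which lies in the region lost in the 5q- syndrome, had an SMC1 peak of 40.0, near the median of members, and a CTCF peak of 191 (chr5:150449366-150450320).

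All 3 stalk genes, whose proteins recruit elongation factors to the ribosome, had an SMC1 peak. RPLP0, the scaffold of the stalk, had SMC1 and CTCF peaks of 65.7 and 247 (CTCF, chr12:120200488-120201837). RPLP2 had peaks of 21.9 and 8.91, and RPLP1 an SMC1 peak of 18.6 and no CTCF peak.

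The 7 paralogs differed among themselves. RPS27L, a p53 target, had one of the 7 SMC1 peaks over 100, at 104, with a CTCF peak of 4.46. RPL39L had peaks of 68.1 and 71.3, RPL26L1 of 65.9 and 161, and RPL22L1 of 20.7 and 15.3. RPL7L1 had an SMC1 peak of 8.93 and no CTCF peak. RPL10L, a gene of the male germ line without introns, had a CTCF peak of 8.86 and no SMC1 peak, and RPL3L, a gene of heart and skeletal muscle, had neither. Left out, the paralogs changed the share of members with an SMC1 peak from 85.0% to 86.3%.

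The 12 members without an SMC1 peak within 1 kb included RPL3, RPL13, RPL14, RPL19, RPS9, RPS16, RPS18 and RPS23 and the paralogs RPL3L and RPL10L. In most of them the nearest SMC1 summit was a few kb away, such as 3.04 kb at RPL3 and 5.08 kb at RPL3L. The starts of 4 lay in stretches of at least 100 kb without any SMC1 peak, which holds for 5.00% of members and 15.5% of coding genes. Such stretches measured 2106 kb at RPS18, 919 kb at RPS9 and 696 kb at RPL10L. RPS18, at the edge of the major histocompatibility complex, had neither a CTCF peak nor a loop. The lists also hold 76 SMC1 and 78 CTCF peaks on alternate versions of chromosome regions, and the part of these sequences in the empty stretches was not tested. As for the oligopyrimidine tract shown above, 38 of the 44 members with a tract at the start base had an SMC1 peak. So did 16 of the 19 without one there, and 64.2% of all coding genes. The median -log10 q-value of these members' peaks was 33.1 with a tract at the start base and 61.4 without. Of the 19 counted as without, 7 held a tract within 5 bases of the start, so the groups are not cleanly divided.

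Peak summits of members lay mostly before the start. For the strongest peak within 1 kb of the canonical start, 47 of 67 SMC1 summits were before it, 70.1% (95% Wilson interval from 58.3 to 79.8), with a median position of -144 bp. For all coding genes this was 52.5% with a median of -28.0 bp, and for mitochondrial ribosomal protein genes 60.0% with a median of -116 bp. The share was 77.1% in large subunit genes and 75.0% in small subunit genes. With CTCF 35 of 47 summits (74.5%, interval from 60.5 to 84.7) lay before the start, against 55.8% for all coding genes and 71.1% for mitochondrial ribosomal protein genes. Some members share their start region with a second gene, 15 of 80 (18.8% against 12.7% of coding genes), among them RPS18 with VPS52 and RPL4 with ZWILCH. In RPL17 and RPS10 the second gene is a readthrough into the next one. Without them 67.9% of SMC1 and 77.1% of CTCF summits lay before the start. In the kilobase before the start there were 58.8 SMC1 summits per 100 members against 32.6 per 100 coding genes, and in the kilobase after it 28.8 against 29.9. The profile of summits shows this asymmetry.

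**Figure D3:**
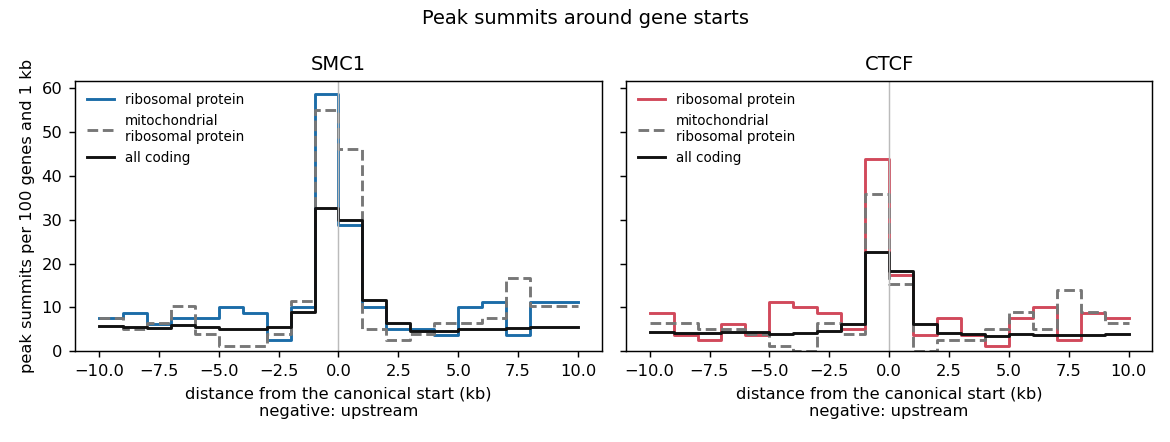
Peak summits per 100 genes in bins of 1 kb by distance from the canonical start (kb, negative before the start), for SMC1 (left) and CTCF (right), in ribosomal protein genes (coloured), mitochondrial ribosomal protein genes (dashed) and all coding genes (black). Just before the start the ribosomal protein genes reach 58.8 for SMC1 and 43.8 for CTCF against 32.6 and 22.6 in all coding genes, and just after it 28.8 and 17.5 against 29.9 and 18.3.

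The letters of the CTCF core motif were rare at these peaks. The core, whose letters stand in capitals in the sites below, was found within 100 bp of the summit in 2 of the 59 CTCF peaks at members (3.39%), in 4.14% of CTCF peaks at coding starts and in 7.49% of all CTCF peaks on chromosomes 1 to 22. Of the 15 member peaks whose -log10 q-value reached 100, 2 held it (13.3%), against 10.5% at coding starts and 19.1% of all such peaks. Both sites are given with the core in capitals, from the hg38 genome on the plus strand, because they are the only ones found near summits of CTCF peaks at members. Around SMC1 summits the core was found in 3 of 87 member peaks (3.45%) and in 2.73% of SMC1 peaks at coding starts. None of the 7 member peaks that reached 100 for SMC1 held it, with a Wilson interval up to 35.4%, against 12.5% at coding starts. The search asked for CCA, AG and GGC, each a pair of free bases apart, on both strands.
RPL5: accctccttCCAGCAGGGGGCggaacgtaa
RPL38: tgacttcgaCCACAAGGGGGCagggctgct
The site at RPL5 (chr1:92831922-92831951) was centred at -103 bp and the one at RPL38 (chr17:74203543-74203572) at -120 bp, and both read in the direction of the gene. RPL38, a small protein of the large subunit, had a CTCF peak of 149. The strict core misses weaker variants of the motif, so its absence in the other peaks says nothing on whether CTCF was bound there.

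Loops join pairs of 5 kb bins, and a loop was counted for a gene when an anchor lay within 1 kb of its start. An anchor can hold the starts of several genes, and neighbouring bins are listed as separate loops. The lists held 28012 loops labelled SMC1 (788356 read pairs) and 80487 labelled CTCF (2666327 read pairs). The study's own loop totals attach these list sizes to the targets the other way round, so each list is named here by its label alone. In the study's method, a called loop has the target enriched at an anchor. Each member loop of either list had an SMC1 peak at an anchor, and each labelled SMC1 also had a CTCF peak. Some member loops labelled CTCF had no CTCF peak at either anchor. Examples joined chr1:153990001-153995000 at RPS27 to chr1:154080001-154085000, and chr2:3560001-3565000 to chr2:3575001-3580000 at RPS7. A label may thus name the other target, which was not tested. In the list labelled SMC1, 34 members had a loop, 42.5% (95% Wilson interval from 32.3 to 53.4), against 26.3% of coding genes, 29.6% of those with a CpG ratio of at least 0.6 and 32.1% of mitochondrial ribosomal protein genes. In the list labelled CTCF, 52 members had one, 65.0% (interval from 54.1 to 74.5), against 49.3% of coding genes, 56.5% of those with a CpG ratio of at least 0.6 and 64.1% of mitochondrial ribosomal protein genes. No loop of either list was found at 25 members (31.2% against 48.7%). At the canonical start alone the same shares of members, 42.5% and 65.0%, stood against 22.3% and 44.7% of coding genes.

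The 34 members held 105 loops in the list labelled SMC1, or 1.31 per gene over all 80 against 0.939 in coding genes, with a median of 0 in both. In the list labelled CTCF there were 192 loops, 2.40 per gene against 2.28, with medians of 1 and 0. The means rest on few genes with many loops, since 46 members had no loop and 15 had 1 in the list labelled SMC1. Members with 10 or more loops made up 1.25% against 1.97% of coding genes in the list labelled SMC1, and 3.75% against 5.88% in the list labelled CTCF. Outside chromosome 19 the members had 0.971 loops per gene in the list labelled SMC1, against 0.881 for coding genes. In the list labelled SMC1, the 15 members that share their start region with a second gene had 0.267 per gene, against 1.55 for the other 65. The median was 0 in both groups. In the list labelled CTCF the means were 1.13 and 2.69. No such split of all coding genes stands beside these values.

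**Figure D4:**
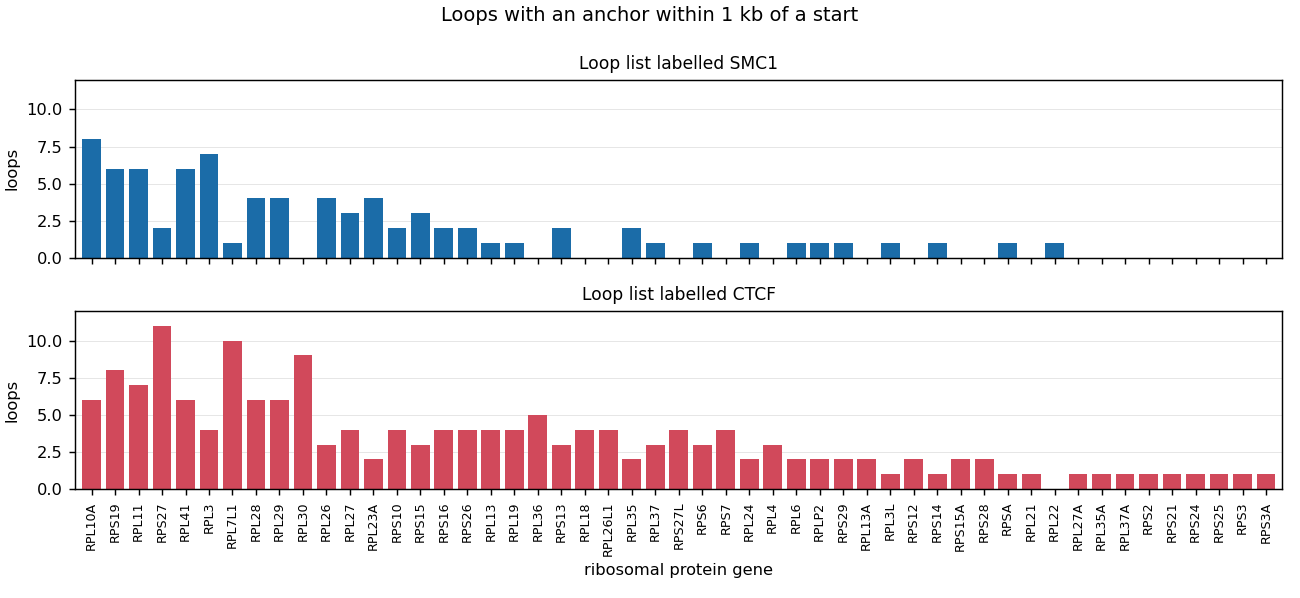
Number of loops with an anchor within 1 kb of a start for the members shown, each with at least 1 loop, in the list labelled SMC1 (top) and the list labelled CTCF (bottom), ordered by the sum of both. RPL10A with 8 and 6, RPS19 with 6 and 8, and RPL11 with 6 and 7 loops are among the highest, and most members have fewer than 5.

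RPL10A had 8 and 6 loops, with 54 read pairs against 12.9 expected to the start of DEF6, 170 kb away, in the list labelled SMC1. The same bins had 82 against 13.3 in the list labelled CTCF. RPL3, whose protein reaches toward the peptidyl transferase centre, had no SMC1 peak within 1 kb of its start. The 5 kb anchor bin at its start did hold peaks of both targets. RPL3 had 7 and 4 loops. These reached bins between 135 and 165 kb away on one side of the gene, with a maximum of 77 read pairs against 14.9 expected at 145 kb and 105 against 11.2 in the other list.

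RPL41, RPL11 and RPS19 each had 6 loops in the list labelled SMC1. The member loop with the most read pairs of this list was at RPL41, which encodes the smallest ribosomal protein, and joined chr12:56115001-56120000 to chr12:56185001-56190000, at the start of SMARCC2 70 kb away, with 101 read pairs against 29.2 expected. The starts of ESYT1 and ZC3H10 lie at the same anchor, so this loop cannot be assigned to RPL41 alone. In the list labelled CTCF the member loop with the most read pairs was at RPL11, where chr1:23690001-23695000 and chr1:23745001-23750000 had 123 against 18.6 expected over 55 kb. The list labelled SMC1 gave the same bins 42 against 10. The RPS19 loop with the most read pairs had 50 against 13.3 expected over 90 kb in the list labelled SMC1, and 91 against 13.2 over 95 kb in the list labelled CTCF.

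The list labelled CTCF brought up further genes. RPS27 had 11 loops there and 2 in the list labelled SMC1, and both lists joined it to the start of NPR1, 310 kb away, with 98 read pairs against 11.4 expected and 52 against 5.72, from an anchor that also holds the start of RAB13. RPL7L1, a paralog, had 10 loops against 1, with 110 read pairs against 10.9 expected over 215 kb. RPL30 had 9 against none, and RPS19 had 8 against 6. Of the members without an SMC1 peak, RPS16 had 2 and 4 loops in the lists labelled SMC1 and CTCF, RPL13 and RPL19 each 1 and 4, and RPL3L 1 and 1. The 5 kb anchor at such members still held an SMC1 peak in 78.6% of loops labelled SMC1 and 82.4% of those labelled CTCF. Over all coding genes these shares were 92.3% and 93.2%. Because loops were called from peaks, the presence of a peak at an anchor is partly set by the calling.

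No loop of either list joined the starts of different genes among the 80 members. Outside the symbol rule, a loop labelled CTCF joined an anchor at an RPS29 start to one at the starts of RPL36AL and MGAT2, 25 kb away, with 34 read pairs against 16.1 expected. A pair of loops labelled SMC1 joined alternative starts of a single member, RPL22 with 80 read pairs against 33.5 expected and RPS29 with 69 against 23.4, each over 10 kb. The far anchors often held starts of other genes. In the list labelled SMC1, 50 of 105 member loops had the start of another coding gene at the far anchor, 47.6% (95% Wilson interval from 38.3 to 57.1), against 32.3% over all pairs of a coding gene and a loop and 42.6% for mitochondrial ribosomal protein genes. In the list labelled CTCF it was 94 of 192, 49.0% (interval from 42.0 to 56.0), against 28.4% and 42.8%. Loops of 1 gene to neighbouring bins are not independent, so these intervals are too narrow. On chromosome 19 the list labelled SMC1 gave 41.0% for members and 43.4% for all coding genes, and outside it 51.5% and 30.5%.

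The strength of a loop is the ratio of its read pairs to those expected. Its median over member loops labelled SMC1 was 3.08 (95% rank interval from 2.83 to 3.57), against 3.71 for loops at any coding start. Loops of 1 gene are not independent, so this interval is too narrow. Over pairs of a gene and a loop, the medians on chromosome 19 were 3.01 for members and 3.29 for all coding genes. Outside chromosome 19 they were 3.47 and 3.68. For loops labelled CTCF the medians were 3.69 and 3.66. The median span was 110 kb against 115 kb, and 90 kb against 105 kb. At the far anchors of loops labelled SMC1 an SMC1 peak was present in 80.0% of member loops and 81.5% over all coding genes. A CTCF peak was present there in 74.3% and 75.8%. These shares too are partly set by calling loops from peaks. A counterpart in the other list, with both anchors within 15 kb, was found for 89.5% of member loops labelled SMC1 against 90.4% at any coding start, and for 62.5% of those labelled CTCF against 55.5%.

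As for the labelled cell type, 8 of 8 B cell genes, such as PAX5 and CD79A, had an SMC1 peak at a start. So did 4 of 8 genes that mark other cells (CD8A, GFAP, MYOD1 and NEUROD1), and 64.2% of all coding genes. The strongest of these marker peaks was at CD8A, with a -log10 q-value of 149.8, and the strongest at a B cell gene was 73.7, at CD79B. These peaks therefore do not decide the cell type. A peak at a start is no measure of expression, and neither the SMC1 nor the CTCF lists say how much of any ribosomal protein these cells made.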

How the data were processed

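The authors aligned HiChIP reads to hg38 with BWA-MEM 0.7.17, removed duplicates and alignments of low mapping quality, and ran MACS3 3.0.1 on the pooled replicates, keeping peaks up to a q-value of 0.01. How much of the sequence near ribosomal protein genes, which have many processed copies, is lost by the mapping filter was not tested. The deposited peak lists give the fold enrichment over local background and the -log10 q-value, and the lowest values were 2.01 for SMC1 and 2.00 for CTCF. For each loop the authors deposited the count of read pairs between its 5 kb bins and the signal that MAPS expects, as a number of read pairs. These lists carry no sequencing depth, but the study reports more reads for SMC1 than for CTCF in this line. Cluster values and false discovery rates of the loops were not used. The growth protocol of the labels spells the line slightly differently from the titles, which were followed.

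Starts of coding transcripts came from GENCODE release 44, and a peak or anchor needed to overlap the 1 kb on either side of a start. The strongest peak of a gene was the one with the highest -log10 q-value. Shares carry Wilson intervals and medians rank intervals, all at 95%. With 1 pooled list per target, nothing was tested. Genes described singly are the 5 members with the highest -log10 q-value or most loops per list, the strongest member loops, members without an SMC1 peak, paralogs, stalk genes, RPL5, RPL11, RPS14 and RPS19. RPL8, RPL22, RPL34, RPL38, RPS29, the members with SMC1 alone and genes that share a start region were named after their values were seen. Members and lists were chosen with earlier results of these data known. Some genes that this rule names are not reported here and not plotted, though all 80 members enter each count. Alternatives are given in the closing section. The overlap code was tested on simulated data. Computations used pandas 2.3.3, NumPy 2.4.6 and SciPy 1.17.1 under Python 3.11.15, and Matplotlib 3.10.9 for plots.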

Additional observations from a re-analysis of the deposited data

How the results depend on the processing

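Of 90 values recomputed under alternative settings, 81 stayed near the value reported (medians and means within its interval), 9 moved and 0 reversed. All that moved concern loops. The median CTCF -log10 q-value of members counts as near because its interval is wide, from 14.7 to 80.7. It was 65.5 and 71.3 with thresholds of 5 and 10, and 35.0 at the canonical start. When each loop list was given to the other target, 52 members had a loop attributed to SMC1 and 34 one attributed to CTCF, with 2.40 and 1.31 loops per gene. With the starts of all transcripts, there were 1.62 loops labelled SMC1 and 2.79 labelled CTCF per gene. Restricted to loops with the median count of read pairs or more they were 0.887 and 1.43, and with the start required inside the anchor 1.95 in the list labelled CTCF. The cause of these differences was not tested. The number of members with an SMC1 peak lay between 60 (75% against 57.8% of coding genes), at a stricter -log10 q-value threshold of 10, and 70 (87.5% against 68.5%), with a window of 2 kb. For CTCF it lay between 37 (46.2% against 35.1%) and 55 (68.8% against 52.3%) under the same settings. With genes in stretches of at least 100 kb without an SMC1 peak left out, a setting chosen after seeing the data, the shares were 89.5% for SMC1 and 60.5% for CTCF, against 74.4% and 53.1% of coding genes. This setting removes genes by the absence of SMC1 peaks.

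No paired analysis was possible because the lists used here pool the replicates of each target, and for the same reason no replicate was left out. The number of peaks and loops at 80 genes limits the precision. A gene without a listed peak had none at this depth and threshold, which does not show that the protein was absent.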
